A study of Mus musculus with 24 samples.

Results

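The genes described here are those through which a macrophage senses interleukin-4 (IL-4) and restrains the signal: the receptor chains Il4ra, Il13ra1 and Il2rg, the kinases Jak1 and Jak3, the transcription factor Stat6, the adaptor Irs2, and the inhibitors Cish, Socs1 and Socs3. They were chosen by symbol, as every probe set that the array annotation gives to 1 of these 10 names. A probe set is a group of short probes on the array that reads a single transcript region. Of the 10 genes, 9 had such probe sets, 20 in all among the 45101 of the array and 9 of 18193 genes with a symbol. All 20 passed the filter, which acts on values already divided by each probe set's own median and so does not show expression. Il2rg has no probe set under that symbol in the annotation used and was not analysed here, and 2 further probe sets listed for Jak3 together with Insl3 were not used.

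IL-4 binds the alpha chain encoded by Il4ra, which then pairs with the common gamma chain (Il2rg) or with the IL-13 receptor chain Il13ra1. JAK1 sits on the alpha chain and JAK3 on the common gamma chain, and these kinases phosphorylate the receptor, to which STAT6 docks before it enters the nucleus and switches on genes of alternatively activated macrophages. IRS2 is an adaptor that links the same receptor to PI3-kinase, while CIS (Cish), SOCS1 and SOCS3 are SH2-domain proteins that are induced by cytokines and dampen JAK and STAT signalling.

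The study used bone marrow-derived macrophages of C57Bl/6 mice to ask how IL-4 and the nuclear receptor PPARg, the receptor of the drug rosiglitazone (RSG), work together in macrophage gene expression. Marrow of 3 PPARg fl/- LysCre mice (mice 4, 5 and 6) and of 3 PPARg +/- LysCre mice (mice 1, 2 and 3) was grown into macrophages over 10 days with M-CSF, the macrophage growth factor (20 ng/ml), and each mouse gave 4 cultures: IL-4 with RSG, IL-4 with vehicle, control with RSG and control with vehicle. IL-4 was given at 20 ng/ml and RSG at 1 µM, the vehicle was DMSO and ethanol, and every culture, controls included, received M-CSF. RNA of each culture was hybridized to 1 array, which gave 24 arrays in 8 groups of 3 mice. Both genotypes carry Cre recombinase from the lysozyme locus, which is active in myeloid cells, and both lack 1 intact Pparg allele from the start. In the Pparg fl/- mice the remaining allele is flanked by loxP sites and open to deletion by Cre, and in the Pparg+/- mice it is wild type. The control cultures lacked added IL-4.

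Values are ratios: each probe set was divided by its own median over the experiment, so a ratio of 1 is that median, and levels of different genes cannot be set against each other. Array medians lay between 0.906 and 1.08, no 2 arrays held identical values, and with 3 arrays a group their number sets how precise a mean can be. The array of Pparg fl/- IL-4 vehicle cells of mouse 4 scattered most around its group (residual SD 0.726 on the log2 scale, against 0.603 to 0.682 on the others). All 7 genes of a check list of the IL-4 response were higher on every IL-4 array, among them Arg1 and Retnla, whose 12 control arrays all stood at the lowest deposited ratio of 0.01. The Pparg probe set did not show a lower level in cells labelled Pparg fl/-, with 1.86 to 3.16 in Pparg fl/- and 1.46 to 2.02 in Pparg+/- cells given IL-4 and vehicle. Whether its probes lie in the deleted part is not given in the sources used here, so it checks no label, and genotype is named below as the labels give it. Fabp4, a target gene of PPARg, stood at 0.483 to 0.809 in Pparg fl/- and 0.936 to 1.24 in Pparg+/- cells given IL-4 and RSG, against 0.289 to 0.357 in Pparg fl/- and 0.426 to 0.665 in Pparg+/- cells given IL-4 and vehicle. In both genotypes its RSG arrays lay above its vehicle arrays. In RNA of whole cultures, fewer cells of a type and less RNA per cell cannot be told apart.

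The members responded to IL-4 in opposite directions. With IL-4, the inhibitors Cish and Socs1 were 14.5-fold and 9.09-fold higher. The inhibitor Socs3 was 3.81- to 5.49-fold lower over its probe sets, and the receptor chain Il13ra1 was lower too. The receptor chain Il4ra was called lower on 1 of its 3 probe sets. Jak1 was 1.52-fold higher on 1 of its 3 probe sets, with the others under the fold limit. Stat6 and Irs2 did not pass the test, which does not pair the cultures of a mouse. These are changes averaged over both genotypes and both treatments in a limma fit of all 24 arrays, and a probe set is called where its Benjamini-Hochberg adjusted p is under 0.05 and its change at least 1.5-fold. In that averaged comparison 11 of the 20 probe sets were called, 3 higher and 8 lower, beside 18.5% of all 43349 probe sets tested (10.2% higher and 8.3% lower). Of all calls 55.1% were higher, and 44.4% with arrays centred on their median, where the members' count was again 11 (2 higher and 9 lower), with Jak3 in it and the Jak1 probe set out of it. The median log2 change was -0.46 over the members' probe sets, 5 of which read Il13ra1 alone, and 0.119 over all probe sets. Counted by gene, with the probe set of smallest spread for each of the 9 genes, 3 were higher and 2 lower (Il13ra1 and Socs3), with a median of -0.08. Il4ra was not called in this count. On 6 of the 20 probe sets the 12 IL-4 arrays and the 12 control arrays did not overlap at all, beside 9.09% of all probe sets: Cish, Socs1 and a Jak1 probe set were above and 3 Il13ra1 probe sets below.

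**Figure D1:**
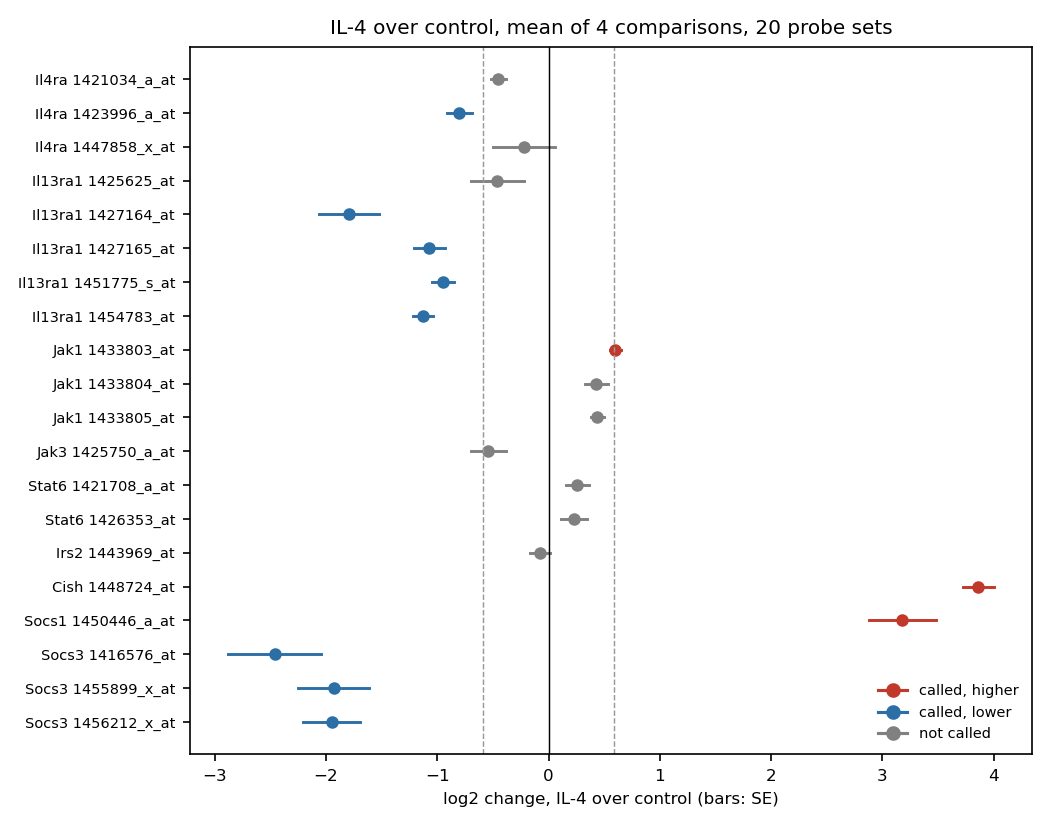
Log2 change with IL-4 against control, averaged over both genotypes and both treatments, for the 20 probe sets (horizontal axis, point and bar: estimate and standard error; dashed lines: 1.5-fold). Red points were called higher, blue points lower and grey points not called; Cish (3.86) and Socs1 (3.18) lie far to the right and the 3 Socs3 probe sets (-1.93 to -2.46) far to the left.

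The same comparison was made within each genotype and treatment. In Pparg fl/- cells 7 of the 20 probe sets were called under RSG (beside 13.3% of all probe sets) and 11 under vehicle (14.8%). In Pparg+/- cells 6 were called under RSG (11.6%) and 12 under vehicle (13.4%). Without mouse 1, whose control vehicle array stood apart, or without that array alone, the count in Pparg+/- cells under vehicle was 6, and without mouse 3 it was 7. Without mouse 6, the count in Pparg fl/- cells under vehicle was 6. With the methods' t-test, an equal-variance test of the groups compared, the counts were 5 in Pparg fl/- cells under RSG and 5 under vehicle, and 3 in Pparg+/- cells under RSG and 2 under vehicle. After quantile normalization, 11 were called in Pparg+/- cells under RSG. Cish, Socs1 and the Il13ra1 probe sets 1427165_at, 1451775_s_at and 1454783_at were called in all 4 comparisons of the limma fit.

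Il4ra (chromosome 7, 125552271 to 125579474 in GRCm38.p6, as RefSeq places it) encodes the chain that binds IL-4 itself, and it was lower where IL-4 was present. On probe set 1423996_a_at the ratio with RSG was 0.875, 0.827 and 0.975 in IL-4 cells of Pparg fl/- mice 4, 5 and 6, against 1.26, 1.29 and 1.45 in their control cells. With vehicle the IL-4 cells of these mice had 0.739, 1.02 and 0.722, against 1.22, 1.35 and 1.51 in control cells. All IL-4 arrays of this genotype lay below all its control arrays.

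In Pparg+/- mice 1, 2 and 3 the same probe set gave 0.754, 0.709 and 0.636 with IL-4 and RSG, against 1.17, 1.04 and 1.19 with RSG alone. With vehicle the ratios of Il4ra were 0.705, 0.491 and 0.564 in IL-4 cells, against 2.1, 0.942 and 1.16 in control cells, where mouse 1 was the highest. The groups did not overlap within any genotype and treatment, and over all mice the ranges met only where mouse 5 with IL-4 and vehicle and mouse 6 with IL-4 and RSG passed the vehicle control of mouse 2. The averaged log2 change was -0.80 ± 0.11 (SE), a 1.74-fold lower level with an adjusted p of 7.8e-06, and it was lower in 12 of 12 pairs of cultures of 1 mouse. Probe set 1421034_a_at of Il4ra gave -0.45 ± 0.07 (adjusted p = 2.5e-05), below the 1.5-fold limit, and 1447858_x_at gave -0.22 ± 0.28 (adjusted p = 0.59). Names ending in x_at mark probe sets whose probes may also match other transcripts.

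Il13ra1 (chromosome X, 36112108 to 36171262) encodes the partner chain that lets both IL-4 and IL-13 signal through the alpha chain. Its probe set 1454783_at gave 0.831, 0.619 and 0.578 in IL-4 cells of Pparg fl/- mice 4, 5 and 6 with RSG, against 1.75, 1.34 and 1.86 in control cells. With vehicle the values were 0.693, 0.865 and 0.69 in IL-4 cells, against 1.63, 1.51 and 1.92 in control cells. The IL-4 arrays were the lower ones in every mouse of this genotype.

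Among Pparg+/- mice 1, 2 and 3, Il13ra1 stood at 0.703, 0.61 and 0.562 with IL-4 and RSG, against 1.33, 1.16 and 1.12 with RSG alone. Under vehicle it stood at 0.88, 0.629 and 0.817 with IL-4, against 2.07, 1.42 and 1.49 in control cells. All 12 IL-4 arrays (0.562 to 0.88) lay below all 12 control arrays (1.12 to 2.07), as 3.84% of all probe sets did. The averaged change of Il13ra1 was -1.13 ± 0.09 (2.18-fold lower, adjusted p = 7.3e-09). Its probe sets 1427164_at (-1.79 ± 0.27, adjusted p = 2.1e-05), 1427165_at (-1.07 ± 0.14, adjusted p = 2.8e-06) and 1451775_s_at (-0.95 ± 0.10, adjusted p = 4e-07) were called as well. The fifth, 1425625_at, ran from 0.399 to 1.95 with IL-4 and from 0.53 to 1.7 in control cells and was not called (-0.46 ± 0.24, adjusted p = 0.15).

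Of the kinases, Jak1 (chromosome 4, 101151974 to 101265282) was higher with IL-4 by a small and even margin. On probe set 1433803_at the 12 IL-4 arrays ran from 1.09 to 1.43 (median 1.2) and the 12 control arrays from 0.738 to 0.909 (median 0.802). The sets of arrays did not overlap, as for 5.26% of all probe sets with IL-4 higher. By group the mean ratio was 1.31 ± 0.0029 with IL-4 and RSG and 1.3 ± 0.12 with IL-4 and vehicle in Pparg fl/- cells, against 0.833 ± 0.072 and 0.809 ± 0.023 in their control cells with RSG and with vehicle (SD, n = 3 each). In Pparg+/- cells it was 1.15 ± 0.054 with IL-4 and RSG and 1.13 ± 0.051 with IL-4 and vehicle, against 0.794 ± 0.026 with RSG alone and 0.771 ± 0.039 with vehicle alone (SD, n = 3 each).

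The averaged change of this Jak1 probe set was 0.60 ± 0.05 (1.52-fold, adjusted p = 4.1e-09), just past the fold limit, which it missed when arrays were centred on their median (0.51), after quantile normalization (0.52) and without mouse 5 (0.58). Jak1 probe sets 1433804_at (0.43 ± 0.10, adjusted p = 0.002) and 1433805_at (0.44 ± 0.06, adjusted p = 1.4e-05) were below the fold limit. All 3 were higher with IL-4 in 12 of 12 pairs of cultures of 1 mouse.

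Jak3 (chromosome 8, 71676383 to 71690577), which signals from the common gamma chain, ran from 0.415 to 1.28 (median 0.835) with IL-4 and from 0.773 to 1.8 (median 1.21) in control cells. The arrays overlapped. Its change of -0.54 ± 0.16 had an adjusted p of 0.0097 but stayed under 1.5-fold, and Jak3 was lower in 10 of 12 pairs. With arrays centred on their median (-0.64), after quantile normalization (-0.61) and without mouse 4 (-0.77) it passed both limits.

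Stat6 (chromosome 10, 127642955 to 127660987), the transcription factor that carries the IL-4 signal, differed little between IL-4 and control cells of a mouse. Probe set 1426353_at gave 1.25, 1.27 and 1.13 with IL-4 and RSG in Pparg fl/- mice 4, 5 and 6, against 1.03, 1.1 and 1.01 with RSG alone. With vehicle they had 0.969, 1.44 and 1.18 in IL-4 cells, against 1.03, 0.959 and 0.994 in control cells. Only mouse 4 with vehicle had the lower ratio with IL-4.

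In Pparg+/- mice 1, 2 and 3 Stat6 stood at 0.664, 1.07 and 1.09 with IL-4 and RSG, against 0.557, 0.908 and 0.9 with RSG alone. Under vehicle it stood at 0.63, 0.933 and 1.01 with IL-4, against 0.55, 0.802 and 0.893 in control cells. Mouse 1 was the lowest of the 6 mice in all 4 of its cultures. The averaged change was 0.23 ± 0.12 (adjusted p = 0.15, 95% interval -0.02 to 0.48), and the other Stat6 probe set, 1421708_a_at, gave 0.26 ± 0.10 (adjusted p = 0.058). Each was higher in 11 of 12 pairs, and neither was called, both being under the fold limit. The fit does not pair the cultures of a mouse, so the low level of mouse 1 adds to the spread behind the interval. Within single mice the log2 change on 1426353_at ran from -0.09 to 0.59.

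Irs2 (chromosome 8, 10984681 to 11008929) ran from 0.823 to 1.33 with IL-4 and from 0.885 to 1.43 in control cells. The ranges nearly coincide, and the averaged change was -0.08 ± 0.09 (adjusted p = 0.53, 95% interval -0.27 to 0.11).

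**Figure D2:**
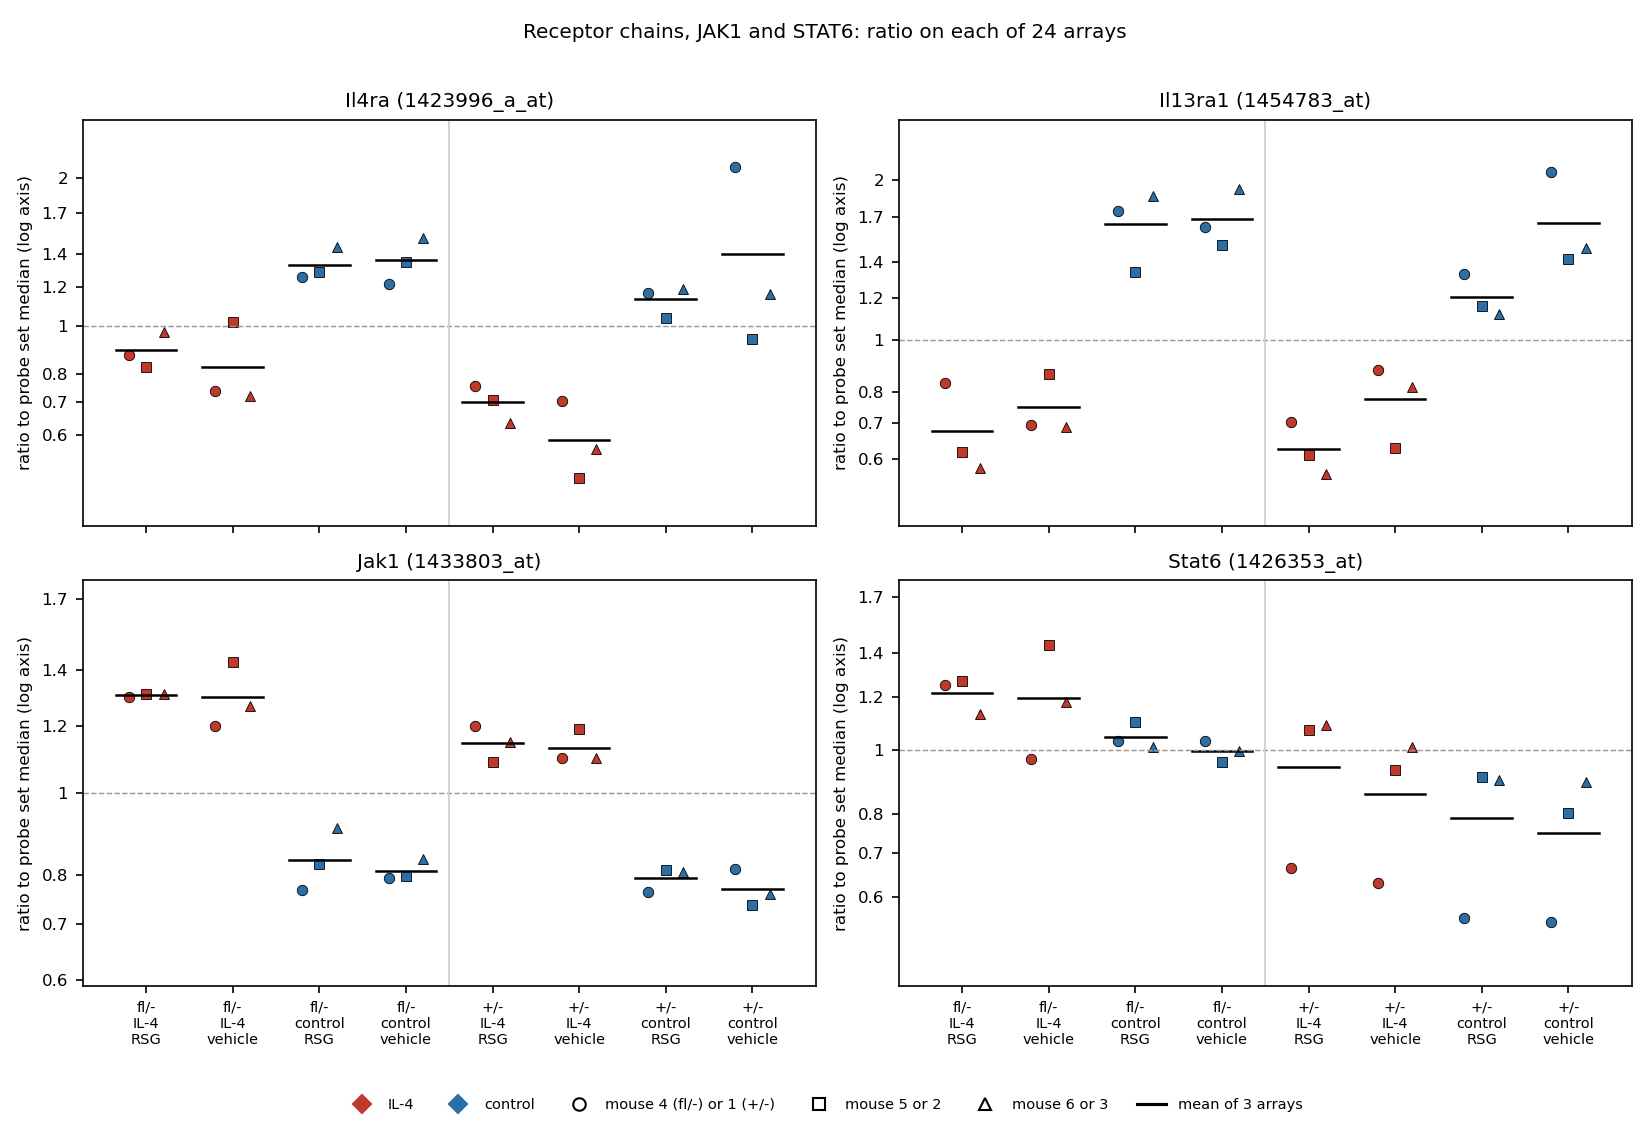
Ratio to the probe set's median (log axis) on each of the 24 arrays for Il4ra, Il13ra1, Jak1 and Stat6, by group (red: IL-4; blue: control; marker: mouse; bar: mean of 3 arrays; Pparg fl/- at left, Pparg+/- at right). Il4ra is shown by its probe set of largest IL-4 change (1423996_a_at) and Stat6 by that of largest genotype difference (1426353_at). Il13ra1 and Jak1 are shown by their probe sets of smallest spread. Il13ra1 lies below 1 on all IL-4 arrays and above 1 on all control arrays, and Jak1 the other way round. Mouse 1 has the lowest Stat6 ratio in each of its cultures.

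Among the inhibitors, Cish (chromosome 9, 107296659 to 107302784) and Socs1 (chromosome 16, 10783808 to 10785536) were higher with IL-4 and Socs3 (chromosome 11, 117966079 to 117970336) lower. Stretches of their promoters are shown because members of the STAT family bind DNA at repeats of the form TTCNNNGAA, with STAT6 known to prefer the wider TTCNNNNGAA. Capitals mark TTCNNNGAA in Cish and Socs3, and in Socs1 the pair of overlapping GAAANNGAAA repeats. GAAANNGAAA is a pattern of the kind interferon regulatory factors bind, and it was picked after the Socs1 sequence had been seen. Each is 60 bases of the strand that carries the gene, taken from the RefSeq promoter windows on GRCm38.p6 (chr9:107296619-107296678 on the plus strand, chr11:117969487-117969546 and chr16:10785587-10785646 on the minus strand).
Cish: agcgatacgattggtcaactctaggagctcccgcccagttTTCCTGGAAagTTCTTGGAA
Socs3: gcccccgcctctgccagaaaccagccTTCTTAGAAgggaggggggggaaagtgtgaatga
Socs1: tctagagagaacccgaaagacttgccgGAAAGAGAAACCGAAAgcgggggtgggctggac

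All 10 genes, Il2rg included, matched a promoter window of 300 bases, from 250 before to 50 after the start of an annotated transcript, which for Socs3, Stat6 and Jak1 lies inside the span of the gene given here. TTCNNNGAA, which reads the same on both strands, occurred 2 times in Cish, at bases 1 to 9 and 12 to 20 counted from the start, and 1 time in Socs3, at bases -154 to -146. It was not found in the windows of the other 8 genes. Of all 32851 windows, 8.3% held it and 0.457% held it at least 2 times. TTCNNNNGAA, held by 6.95% of all windows, was in none of the 10. GAAANNGAAA was searched on both strands, can overlap itself, and was held by 3.44% of all windows; among the members it was found in Socs1 alone, at bases -83 to -74 and -77 to -68. These are matches of letters in a short window and say nothing of which factor is bound.

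Cish had the largest change of the members in the averaged comparison. Its probe set 1448724_at gave 3.17, 3.75 and 3.99 in IL-4 cells of Pparg fl/- mice 4, 5 and 6 with RSG, against 0.145, 0.216 and 0.235 in control cells. With vehicle the IL-4 cells of these mice had 2.74, 4.24 and 4.39, against 0.173, 0.199 and 0.2 in control cells. Mouse 4 was the lowest of the 3 in every culture.

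In Pparg+/- mice 1, 2 and 3 Cish stood at 1.76, 2.41 and 2.47 with IL-4 and RSG, against 0.234, 0.199 and 0.21 with RSG alone. Under vehicle it stood at 2.05, 2.91 and 3.01 with IL-4, against 0.202, 0.244 and 0.216 in control cells. All 12 IL-4 arrays (1.76 to 4.39) lay far above all 12 control arrays (0.145 to 0.244). The averaged change was 3.86 ± 0.14 (14.5-fold, adjusted p = 2.2e-13), and by group it was 18.6-fold and 19.5-fold in Pparg fl/- cells with RSG and with vehicle, and 10.2-fold and 11.9-fold in Pparg+/- cells with RSG and with vehicle. The order of the 8 group means ran from Pparg fl/- IL-4 vehicle (3.79 ± 0.91) over Pparg fl/- IL-4 RSG (3.64 ± 0.42), Pparg+/- IL-4 vehicle (2.66 ± 0.53) and Pparg+/- IL-4 RSG (2.21 ± 0.39) to the 4 control groups (0.191 to 0.221), with neighbours overlapping except at the step between IL-4 and control and that between Pparg fl/- IL-4 RSG and Pparg+/- IL-4 vehicle (SD, n = 3 each).

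Socs1, a direct inhibitor of JAK kinases, varied more from mouse to mouse. Its probe set 1450446_a_at gave 2.68, 2.58 and 3.02 in IL-4 cells of Pparg fl/- mice 4, 5 and 6 with RSG, against 0.286, 0.0705 and 0.0796 in control cells. With vehicle the ratios were 2.12, 3.54 and 2.8 in IL-4 cells, against 0.32, 0.388 and 0.218 in control cells. The lowest control values of Socs1 were those of mice 5 and 6 with RSG.

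For Pparg+/- mice 1, 2 and 3 the ratios of Socs1 were 1.02, 2.26 and 2.11 with IL-4 and RSG, against 0.109, 0.368 and 0.419 with RSG alone. Under vehicle they were 1.44, 2.88 and 2.1 with IL-4, against 0.979, 0.284 and 0.288 in control cells. The control vehicle array of mouse 1 was the highest of the 12 control arrays and close to that mouse's own value with IL-4 and RSG, though all 12 IL-4 arrays still lay above all 12 control arrays. The averaged change of Socs1 was 3.18 ± 0.30 (9.09-fold, adjusted p = 6.6e-08), and within the 4 genotype and treatment combinations it ran from 4.77-fold (Pparg+/- with vehicle, adjusted p = 0.013) to 23.5-fold (Pparg fl/- with RSG, adjusted p = 2.5e-05). Both ends moved with single mice. Without mouse 4 the Pparg fl/- RSG fold of Socs1 was 37.2 (adjusted p = 2.4e-04). Without mouse 1 the Pparg+/- vehicle fold was 8.58 (adjusted p = 0.0018), and it was 3.27 without mouse 2 (adjusted p = 0.22) and 3.86 without mouse 3 (adjusted p = 0.16), where it was not called.

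Socs3, best known as the brake on IL-6 family receptors, was read by 3 probe sets that all went down. By their names, 1455899_x_at and 1456212_x_at may also match other transcripts. Probe set 1456212_x_at gave 0.431, 0.404 and 0.837 in IL-4 cells of Pparg fl/- mice 4, 5 and 6 with RSG, against 2.3, 1.84 and 1.74 in control cells. With vehicle the IL-4 cells had 0.505, 0.348 and 0.574, against 2.18, 2.39 and 4.52 in control cells. No IL-4 array of this genotype reached its lowest control array.

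Pparg+/- mice 1, 2 and 3 had 0.751, 0.768 and 0.624 for this Socs3 probe set with IL-4 and RSG, against 2.67, 2.49 and 0.878 with RSG alone. With vehicle they had 0.86, 1.12 and 0.636 in IL-4 cells, against 9.51, 2.27 and 1.68 in control cells. The control array of mouse 1 stood far above the other 11 control arrays, and the overall ranges met at the RSG control of mouse 3. The averaged change was -1.95 ± 0.26 (3.87-fold lower, adjusted p = 5.1e-06), and Socs3 probe sets 1416576_at (-2.46 ± 0.42, adjusted p = 9.6e-05) and 1455899_x_at (-1.93 ± 0.32, adjusted p = 6.4e-05) were also called. Each of the 3 was lower in 12 of 12 pairs of cultures of 1 mouse.

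The control vehicle array of mouse 1 also had the highest Socs3 ratios on the other probe sets (20.7 on 1416576_at and 11.1 on 1455899_x_at) and the highest Il4ra (2.1) ratio on 1423996_a_at. Left out, the Pparg+/- vehicle comparison of Socs3 gave -1.86 on 1416576_at (adjusted p = 0.12), -0.97 on 1455899_x_at (adjusted p = 0.19) and -1.20 on 1456212_x_at (adjusted p = 0.076). No Socs3 probe set was then called there. In Pparg fl/- cells with vehicle, which do not use that array, all 3 Socs3 probe sets were called, with -3.20 on 1416576_at (adjusted p = 0.011), -2.57 on 1455899_x_at (adjusted p = 0.0071) and -2.62 on 1456212_x_at (adjusted p = 0.0012). In Pparg fl/- cells with RSG 1456212_x_at gave -1.89 (adjusted p = 0.015) and was called, while 1416576_at (-1.41, adjusted p = 0.3) and 1455899_x_at (-1.50, adjusted p = 0.12) were not. In Pparg+/- cells with RSG Socs3 gave -1.34 on 1456212_x_at (adjusted p = 0.096), -2.25 on 1416576_at (adjusted p = 0.084) and -1.58 on 1455899_x_at (adjusted p = 0.11), none of them called. The averaged calls of the 3 Socs3 probe sets held without the array.

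**Figure D3:**
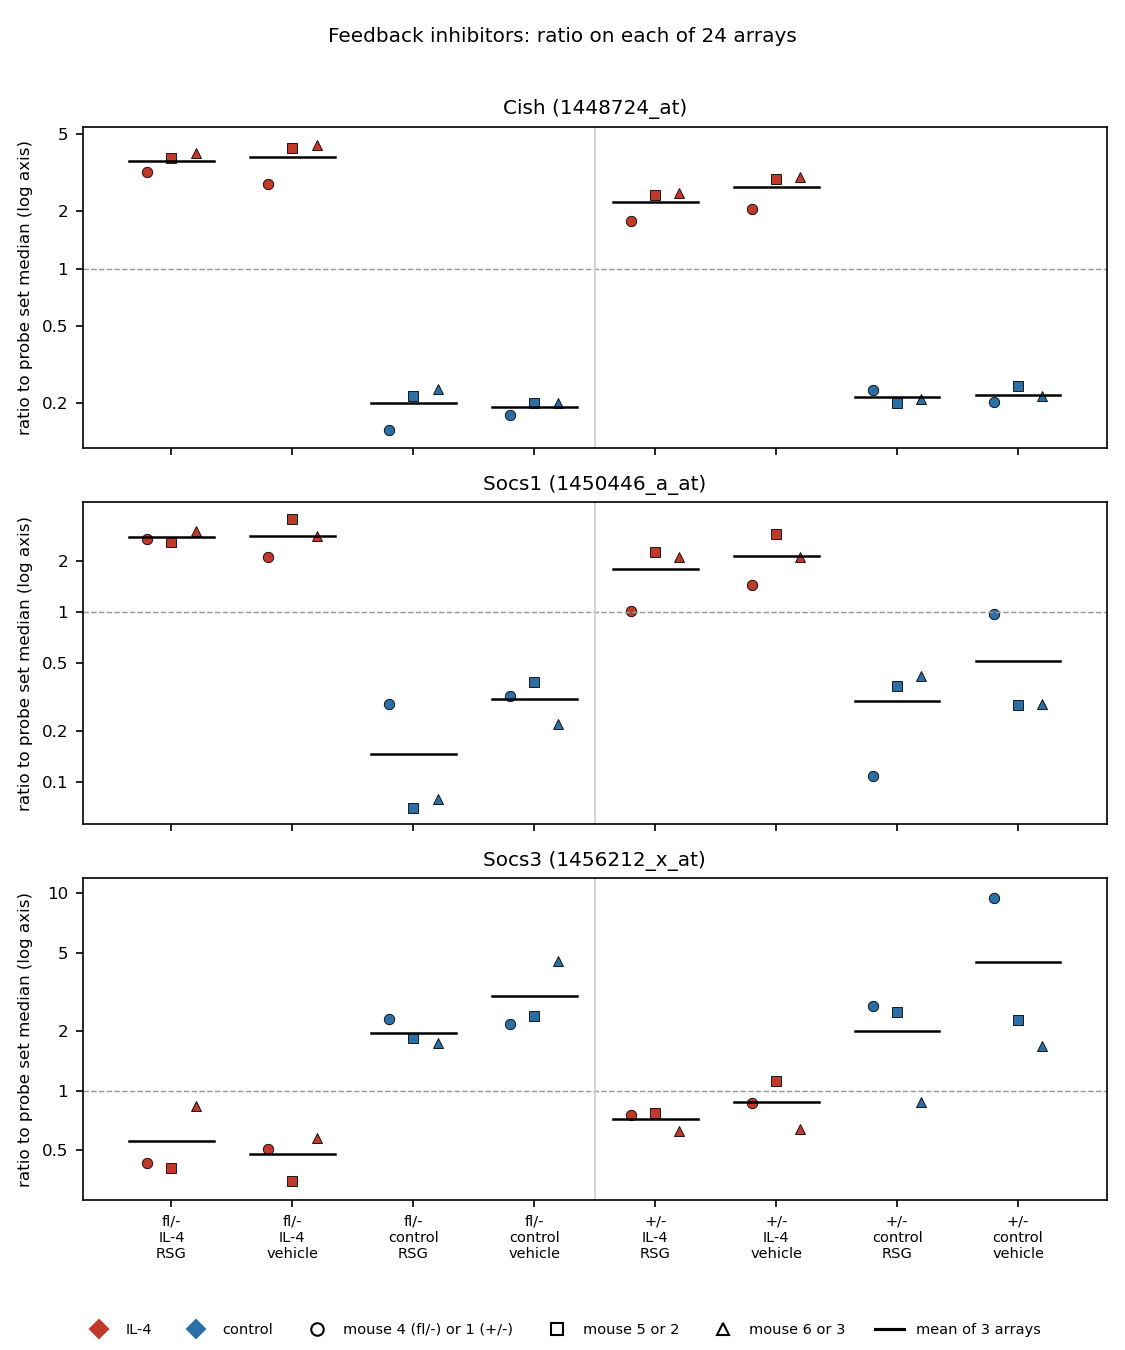
Ratio to the probe set's median (log axis) on each of the 24 arrays for Cish, Socs1 and Socs3, by group (red: IL-4; blue: control; marker: mouse; bar: mean of 3 arrays; Pparg fl/- at left, Pparg+/- at right). Cish and Socs1 are higher on all IL-4 arrays than on any control array, Socs3 is lower with IL-4 in each mouse, and the control vehicle array of mouse 1 stands highest for Socs3 (9.51) and among controls for Socs1 (0.979).

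Markers of other cell types moved with IL-4 too. The summed ratio of 8 neutrophil markers was 0.986 to 3.09 on IL-4 arrays and 12.6 to 27.8 on control arrays, with 7 of 8 lower. For 6 stromal cell markers the sum was 2.23 to 6.15 with IL-4 and 8.44 to 34.2 in control cells, with 4 of 6 lower, and for 4 B cell markers 1.46 to 4.36 with IL-4 and 3.37 to 7.38 in control cells, with 2 of 4 lower. For 7 mast cell and basophil markers it was 6.54 to 15.2 with IL-4 and 4.3 to 8.56 in control cells, with 3 higher and 1 lower. None of 6 T and NK cell markers was called (3.62 to 9.29 with IL-4 and 2.57 to 8.91 in control cells). Of 8 macrophage markers, Itgam was higher and Fcgr1, Mertk and Cd14 were lower (sum 6.59 to 28.1 with IL-4 and 8.75 to 29.3 in control cells), while Adgre1 (0.36), Csf1r (0.07) and Cd68 (0.18) were not called. Lyz2, the last of the 8, was not called either. It ran from 0.296 to 21.6 with IL-4 and from 0.929 to 21.3 in control cells. The spread of this 1 probe set dominates the macrophage sums, which therefore do not show an unchanged macrophage content. These counts read each gene by its probe set of smallest spread. With a gene counted when any of its probe sets was called, 6 of 6 stromal cell markers were lower. Of the T and NK cell markers 1 was then higher and 1 lower, and the counts of the other lists did not change. Ratios to a probe set's own median cannot show whether a marker is present or absent, and the part of these markers in the members' changes was not tested.

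No member was called with RSG, the PPARg ligand. The limma fit called 0 of the 20 probe sets in each of the 4 comparisons of RSG with vehicle, beside 0.00923% of all probe sets in Pparg fl/- cells with IL-4, 0% in Pparg fl/- control cells, 0.173% in Pparg+/- cells with IL-4 and 0.0115% in Pparg+/- control cells. The methods' t-test likewise called 0 after Benjamini-Hochberg adjustment. At an unadjusted p under 0.05 stood 1, 1, 0 and 1 of the 20. These were Il13ra1 1451775_s_at in Pparg fl/- IL-4 cells (-0.45, adjusted p = 1), Socs1 in Pparg fl/- control cells (-1.36, adjusted p = 1) and Il13ra1 1454783_at in Pparg+/- control cells (-0.45, adjusted p = 0.86).

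For Cish with IL-4, the RSG change was -0.03 in Pparg fl/- cells (95% interval -0.61 to 0.54) and -0.26 in Pparg+/- cells (-0.84 to 0.31). For Stat6 1426353_at with IL-4 it was 0.04 in Pparg fl/- cells (-0.46 to 0.54) and 0.13 in Pparg+/- cells (-0.38 to 0.63). The intervals given here come from the fit that does not pair the cultures of a mouse. Within single mice given IL-4, Cish was lower with RSG in 3 of 3 Pparg+/- pairs (-0.29 to -0.23). In Pparg fl/- mice Cish was lower in 2 of 3 (-0.17 to 0.21). Stat6 1426353_at was higher with RSG in 3 of 3 Pparg+/- pairs (0.07 to 0.2) and 1 of 3 Pparg fl/- pairs (-0.19 to 0.37). With mouse as a block no member was called either. Jak1 1433803_at had narrow intervals, 0.01 in Pparg fl/- cells (-0.19 to 0.21) and 0.02 in Pparg+/- cells (-0.18 to 0.22) with IL-4, and Socs1 wide ones, 0.00 (-1.28 to 1.27) and -0.28 (-1.55 to 0.99) in the same cells. The RSG change in Pparg+/- cells did not differ between IL-4 and control cultures for any of the 20 probe sets at an adjusted p under 0.05, nor at an unadjusted p under 0.05 (0 of 20, limma), beside 0.00231% of all probe sets called.

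Between the genotypes, averaged over the 4 cultures, 0 of the 20 probe sets were called in the limma fit, 6 had an unadjusted p under 0.05, and 1.18% of all probe sets were called. Stat6 and Jak1 came nearest. Stat6 probe set 1421708_a_at, that of smaller spread, gave a difference of 0.31 (limma adjusted p = 0.075). On Stat6 1426353_at the 12 arrays of Pparg fl/- mice ran from 0.959 to 1.44 and those of Pparg+/- mice from 0.55 to 1.09. The difference was 0.44 ± 0.12 (1.36-fold, adjusted p = 0.031), under the fold limit, and without mouse 1, the low mouse, it was 0.22 (adjusted p = 0.11). Without mouse 2, 5 or 6 the adjusted p of Stat6 lay between 0.059 and 0.19. The replicates of a genotype are its 3 mice. With mouse as a random block the limma adjusted p was 0.04 for this Stat6 probe set and 0.019 for Jak1 1433804_at. In a limma fit added after the data were seen, each mouse was reduced to 1 mean of its 4 cultures. That fit gave 0.36 and 0.28, with 1 of the 20 probe sets at an unadjusted p under 0.05. It called none of the 20, and none of all probe sets tested. With arrays centred on their median the difference on Stat6 1426353_at was 0.38 (adjusted p = 0.062), and after quantile normalization 0.39 (adjusted p = 0.07). On Jak1 1433804_at the difference was -0.45 ± 0.10 (1.37-fold lower in Pparg fl/- cells, adjusted p = 0.013), whereas 1433803_at gave 0.13 (adjusted p = 0.092) and 1433805_at 0.08, so the probe sets of Jak1 disagreed in sign. Without mouse 1, 2, 3 or 5 the adjusted p of Jak1 1433804_at lay between 0.069 and 0.091.

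The mean response of Cish to IL-4 was larger on the arrays labelled Pparg fl/- than on those labelled Pparg+/-. The difference did not pass the test over all probe sets, so the genotypes were not told apart. Within single mice, IL-4 over control was between 15.8- and 21.9-fold for Cish in Pparg fl/- mice, and between 7.49- and 14-fold in Pparg+/- mice. The 6 values of each genotype, 2 from each of its 3 mice, did not overlap. Among the 20 probe sets this held for Cish alone (1 of 20), beside 0.298% of all probe sets. The difference of the responses was 0.79 ± 0.27 on the log2 scale (95% interval 0.21 to 1.36, limma adjusted p = 0.86). With 1 response per mouse, 3 mice against 3, the Cish difference was 0.79 ± 0.36 (adjusted p = 0.94). For Socs1 the within-mouse folds ran from 6.62 to 37.9 in Pparg fl/- mice and from 1.47 to 10.1 in Pparg+/- mice. These overlap, the lowest being mouse 1 with vehicle, and the difference was 1.39 ± 0.61 (95% interval 0.11 to 2.66, limma adjusted p = 0.92). With 1 response per mouse the Socs1 difference was 1.39 ± 0.58 (limma adjusted p = 0.92). None of the 20 was called, 2 had an unadjusted p under 0.05, and 0.00923% of all probe sets were called.

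**Figure D4:**
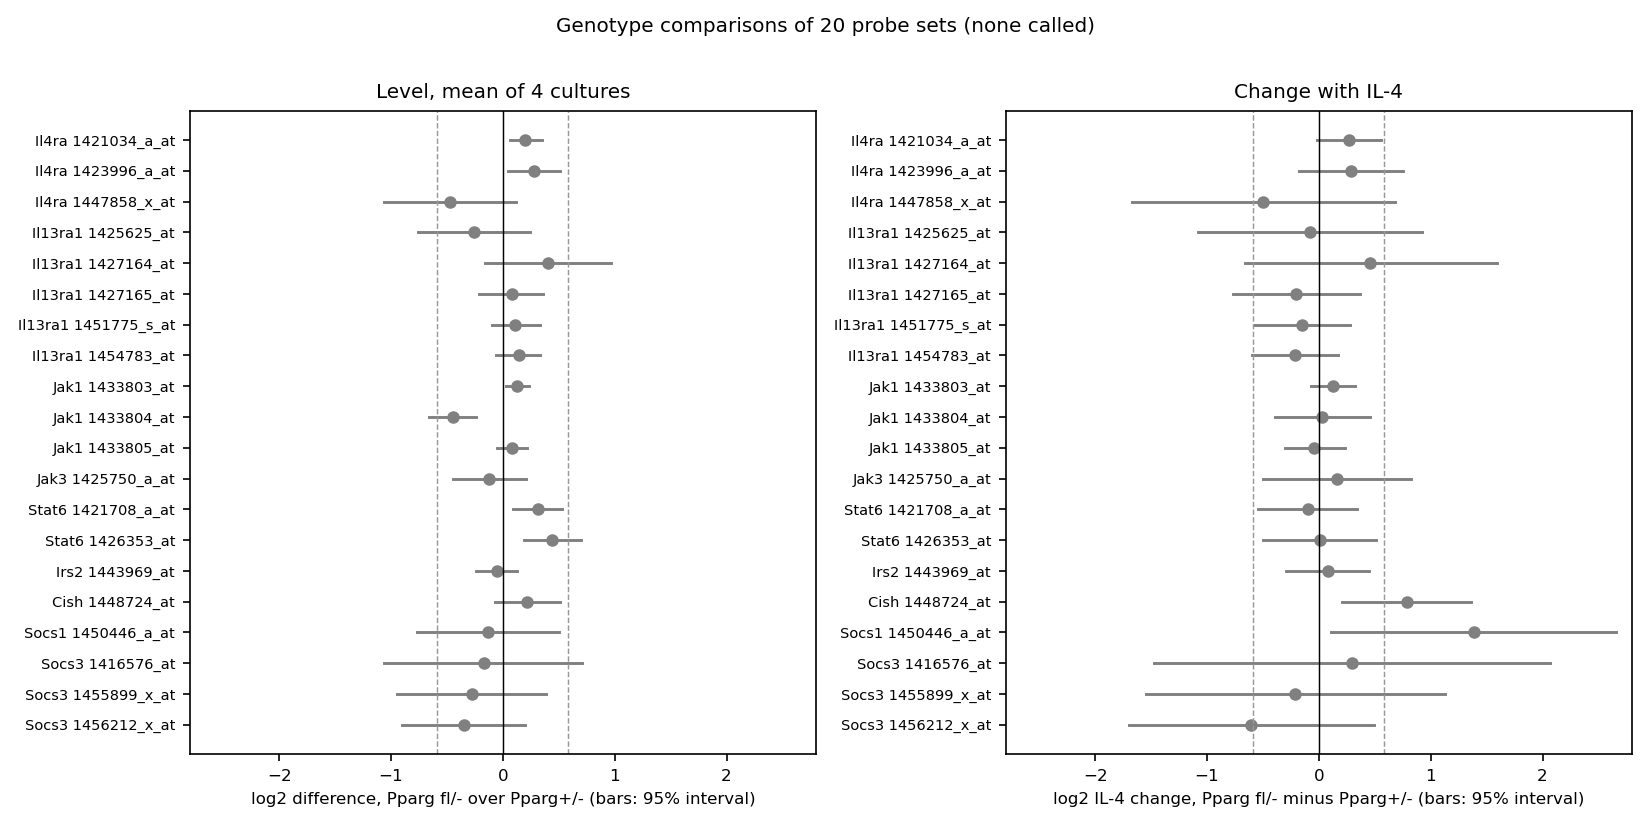
Left: log2 ratio of Pparg fl/- over Pparg+/- cells averaged over the 4 cultures; right: log2 IL-4 response of Pparg fl/- cells minus that of Pparg+/- cells (points: estimates for the 20 probe sets; bars: 95% intervals). None was called in either panel. At right the intervals of Cish (0.21 to 1.36) and Socs1 (0.11 to 2.66) lie above 0. They are not adjusted for the number of probe sets and treat the 4 cultures of a mouse as independent. With 1 response per mouse the unadjusted limma p was 0.071 for Cish and 0.05 for Socs1.

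The wider pathway was described through 4 lists with each gene counted by its probe set of smallest spread, in the averaged IL-4 comparison, where 10.2% of all probe sets were called higher and 8.3% lower and the median was 0.119. Of 7 measured receptor chains of related cytokines, 2 were called higher and none lower (list median 0.7). These were Crlf2, the receptor chain for TSLP (1.30 ± 0.08, 2.46-fold, adjusted p = 9.5e-11), and Il7r, the IL-7 receptor alpha chain (0.87 ± 0.09, 1.83-fold, adjusted p = 1.8e-07). The decoy receptor Il13ra2, which binds IL-13 without signalling as the others do, ran from 0.153 to 1.31 with IL-4 and from 0.637 to 1.47 in control cells and was not called.

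Of 7 other JAK kinases and STATs, 1 was called higher and 1 lower (list median -0.07), beside the same 10.2% and 8.3%. Jak2, a kinase of the growth hormone and GM-CSF receptors, had ratios of 1.2 to 1.96 with IL-4 and 0.563 to 0.799 in control cells (1.21 ± 0.08, 2.31-fold, adjusted p = 2.7e-10). Stat4, which carries IL-12 signals, had 0.0644 to 0.771 with IL-4 and 1.23 to 3.63 in control cells (-2.79 ± 0.28, 6.9-fold lower, adjusted p = 1.4e-07). Neither pair of ranges overlapped. Stat3, Stat5a, Stat5b and Tyk2 each changed by at most 0.19 in size and were not called.

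Of 15 other SOCS proteins, PIAS proteins and phosphatases, 3 were called higher and 1 lower (list median 0.19), beside 10.2% and 8.3% of all probe sets. Socs2, which restrains growth hormone signalling, changed more than any member, with 1.65 to 6.15 on IL-4 arrays and 0.155 to 0.352 on control arrays (4.07 ± 0.14, 16.7-fold, adjusted p = 1.7e-13). Ptpn2, a phosphatase of JAK1, JAK3 and STAT proteins, was 1.92-fold higher (0.94 ± 0.06, adjusted p = 2.2e-10) and Socs6 1.75-fold higher (0.81 ± 0.12, adjusted p = 1.2e-05). Inpp5d, the lipid phosphatase SHIP1, was 1.59-fold lower (-0.67 ± 0.06, adjusted p = 7e-08). The 4 PIAS genes each stayed within 0.19 of 0 in either direction and were not called.

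Of 15 other adaptors and members of the PI3-kinase arm, 2 were called higher and 4 lower (list median 0.13), again beside 10.2% and 8.3%. Dok2, an adaptor that restrains tyrosine kinase signalling, was 3.29-fold higher (1.72 ± 0.09, adjusted p = 2.1e-11). Irs1, the relative of Irs2, was 2.04-fold lower (-1.03 ± 0.34, adjusted p = 0.022), with 0.129 to 1.52 on IL-4 arrays and 0.792 to 2.51 on control arrays, which overlap. Among PI3-kinase subunits, the regulatory Pik3r5 was 1.96-fold lower (-0.97 ± 0.14, adjusted p = 9.2e-06) and the catalytic Pik3cg, its partner, 1.67-fold lower (-0.74 ± 0.06, adjusted p = 8.2e-09). The other calls of this list, outside the rule for named genes, were the catalytic Pik3cb, 1.55-fold higher (0.63 ± 0.07, adjusted p = 6.1e-07), and the regulatory Pik3r1, 1.51-fold lower (-0.59 ± 0.07, adjusted p = 5.7e-07). The ligand genes Il4 (0.74, adjusted p = 0.16) and Il13 (0.35, adjusted p = 0.23) were not called.

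**Figure D5:**
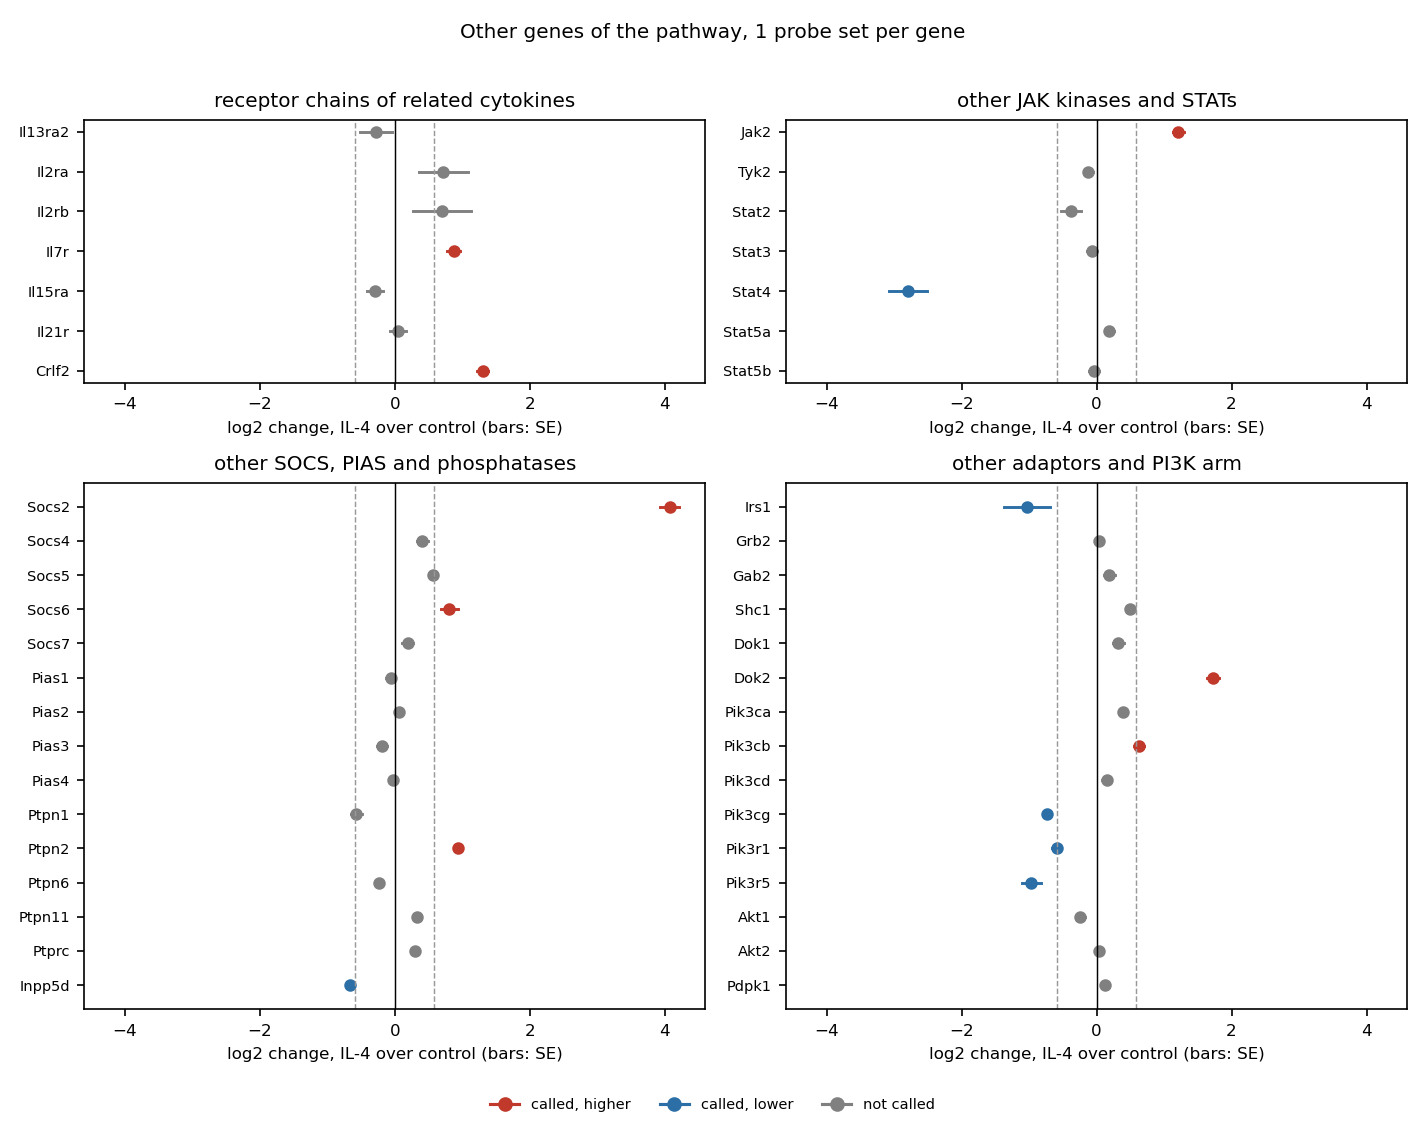
Log2 change with IL-4 against control, averaged over both genotypes and both treatments, for the genes of the 4 pathway lists (point and bar: estimate and standard error of 1 probe set per gene; red: called higher; blue: called lower; grey: not called). Socs2 (4.07) and Dok2 (1.72) lie furthest right and Stat4 (-2.79) furthest left.

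Genes with the most similar pattern were sought for each member with a called probe set, as the highest Pearson correlation over the 8 group means among 6802 probe sets called with IL-4. The closest to Cish were Dusp1 and Tmem268 (r = 0.999 each), to Socs1 Clcf1 (0.995) and Zfand5 (0.993), and to Socs3 Bend6 (0.982) and Ninl (0.981). For Il13ra1 they were Marcksl1 (0.997) and Nsd2 (0.995), for Il4ra Lamb2 (0.978) and Bvht (0.976), taken for its probe set of smallest spread, 1421034_a_at, and not for the called 1423996_a_at, and for Jak1 Otud5 (0.999) and Akirin2 (0.997). The 8 means share the same arrays and were chosen from probe sets that IL-4 changed, so high values describe a common IL-4 step and nothing more.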

How the data were processed

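Total RNA of each culture was hybridized to an Affymetrix whole-genome mouse expression array. The authors computed GC-RMA signals in GeneSpring 7.3 (GCOS is also named in the submitters' processing notes), divided each chip by its 50th percentile and each probe set by its median, and deposited the resulting expression ratios on a linear scale. A final division by the vehicle control, described in the methods, is not visible in the values, since 82.2% of probe sets have a median within 0.005 of 1.

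Probe sets were named from the platform annotation, matched by gene ID to RefSeq (34945 with 1 symbol, 932 with several, 9160 with none). After removal of 64 control probe sets and of 1688 below the array median on all but at most 2 arrays, 43349 were tested. A value at or above the array median on at least 3 arrays was required. Most probe sets have a median ratio near 1, so this filter does not remove those of low signal. Log2 ratios, floored at the lowest deposited value of 0.01, were fitted with 8 group means in limma 3.58.1 (R 4.3.3; lmFit, eBayes with trend) in place of the methods' t-test, and 12 comparisons were made with Benjamini-Hochberg adjustment over all probe sets and the methods' threshold (adjusted p under 0.05, at least 1.5-fold). The fit was tested on simulated data. Intervals are 95% confidence intervals.

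The labels tie the 4 arrays of a number to 1 animal, so the numbers pair the samples. Deviations from group means of same-mouse arrays had a median correlation of 0.0138 (-0.0567 to 0.0442, 36 pairs), against -0.00655 for arrays of different mice. Mice are the replicates, and the 4 cultures of a mouse were treated as independent in the fit, with mouse as a block among the alternatives. A fit of 1 value per mouse to the genotype comparisons was added after the data were seen.

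All members were named. From each pathway list, up to 4 genes with the largest called change were named, by the probe set of smallest residual spread, and for each called member the 2 genes most like it. Members and lists were chosen with earlier results of these data known. Alternatives were array centring, quantile normalization, no filter, no trend, a floor of 0.05, mouse as a random or fixed block, the methods' t-test and leaving out each mouse or either of 2 arrays.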

Additional observations from a re-analysis of the deposited data

How the results depend on the processing

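Counts of the members' 20 probe sets called with IL-4 moved with the test and with single mice. In Pparg fl/- cells with vehicle (11 called) the methods' t-test called 5, and leaving out mice or arrays gave 6 to 11. In Pparg+/- cells with vehicle (12 called) the t-test called 2 and leaving out gave 6 to 12. In Pparg+/- cells with RSG (6 called) the t-test called 3, quantile normalization 11, and leaving out gave 4 to 9. In Pparg fl/- cells with RSG (7 called) leaving out gave 6 to 9, and in the averaged comparison (11 called) 10 to 13. The t-test estimates the spread of each probe set from 6 arrays alone. The comparisons of RSG, of genotype and of the differences of responses gave 0 called members under every alternative run. With mouse as a replicate block the counts were 7 (Pparg fl/- RSG), 11 (Pparg fl/- vehicle), 12 (Pparg+/- vehicle) and 11 (averaged), as without it. In Pparg+/- cells with RSG the count was 6 (random block) or 8 (fixed effect), and no other count of members changed. A block leaves the log2 changes as they are. These counts therefore cannot show what pairing does to probe sets under the fold limit, such as those of Stat6. Of the averaged log2 changes of single probe sets under all alternatives, 291 kept their direction and side of the threshold, 5 newly passed it, 3 no longer did and 1 changed sign: Irs2, at 0.0022 without mouse 3 (adjusted p = 0.99) and -0.15 to 0.0022 over the mice and arrays left out. The 3 were those of Jak1 1433803_at (0.51 to 0.63 over all alternatives), and of the 5, Jak3 made up 4 (-0.77 to -0.41) and Il13ra1 1425625_at 1. Cish stayed between 3.77 and 3.94 and Socs1 between 3.04 and 3.41. The median averaged log2 change of all probe sets with IL-4 was 0.119 as deposited, 0.028 with arrays centred and 0.04 after quantile normalization, and the share of higher calls was 55.1%, 44.4% and 46.8%; between genotypes it was 43.4%, 25.6% and 30.6%. With a gene counted when any of its probe sets was called, the pathway lists had 3 higher and 0 lower (receptor chains), 1 and 2 (JAK kinases and STATs), 4 and 2 (SOCS, PIAS and phosphatases) and 3 and 5 (adaptors and PI3-kinase arm). Over all probe sets, genotype calls numbered 511, and 162 to 812 when mice or arrays were left out. They numbered 409 with mouse as a random block and 0 with 1 value per mouse, 3 mice against 3. With 3 mice a group, small changes such as those of Stat6 and Irs2 are bounded by intervals of a fit that does not pair cultures. Both Stat6 probe sets were higher with IL-4 in 11 of 12 pairs of cultures of 1 mouse, and Irs2 in 5 of 12.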
